A study of Mus musculus with 12 samples.

Results

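The comparison concerned 8 of the 12 mouse neuroendocrine thyroid carcinomas of the series: all 5 tumours of the Rb1/Trp53/Crebbp genotype (RPC-labelled, T1 to T5) and those 3 of the 7 tumours of the Rb1/Trp53 genotype (RP-labelled) that held little fat cell RNA (T1, T3 and T5). The RP-labelled tumours were chosen by their measured Ucp1: a tumour counted as fat-poor at 20 CPM or less (CPM are counts per 1 M gene counts). The 4 fat-rich RP-labelled tumours (T2, T4, T6 and T7) were left out together, to see which genotype differences were still called without them. The samples were primary tumours of a genetically engineered mouse model, and both groups carried the Rb1 and Trp53 alleles, so that Crebbp alone set the labels apart. Neither the labels nor the design text name the deleted exons, the promoter or Cre driver, or the age and number of mice. Whether 2 tumours shared a mouse is unknown, and the p-values speak of the spread among these tumours. In a bulk tumour, fewer cells of a type and less RNA per cell cannot be told apart.

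Crebbp encodes a histone acetyltransferase that serves as a coactivator of CREB, the transcription factor through which cyclic AMP acts on genes, and of many other factors. Rb1 restrains the E2F factors that drive entry into the cell cycle, and Trp53 encodes the p53 tumour suppressor. Neuroendocrine thyroid carcinoma resembles the C cells of the thyroid, which make calcitonin from the gene Calca and lie among the follicular cells that make thyroglobulin. Brown fat lies close to the thyroid in mice. Its cells burn fuel for heat through the uncoupling protein encoded by Ucp1, and Plin1 coats the lipid droplets of fat cells.

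The selection rested on Ucp1, so the fat markers are a description with no test. Ucp1 stood at 0.549 to 9.40 CPM in the fat-poor RP-labelled tumours, 1.02 to 7.22 CPM in the RPC-labelled tumours and 48.45 to 137.7 CPM in the tumours left out. RP-labelled T5, at 9.40 CPM, was the nearest tumour below the limit and RP-labelled T7, at 48.45 CPM, the nearest above, with no tumour between them. Plin1 stood at 1.64 to 2.19, 0.657 to 2.31 and 9.89 to 30.99 CPM in the same groups. The summed level of 16 brown and white adipocyte markers was 119 to 257 CPM in the fat-poor RP-labelled, 81.3 to 237 CPM in the RPC-labelled and 786 to 2623 CPM in the fat-rich tumours, none of the 16 being at 0 in all 8 tumours. Ucp1 fixed the choice of tumours, so these levels restate it.

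**Figure D1:**
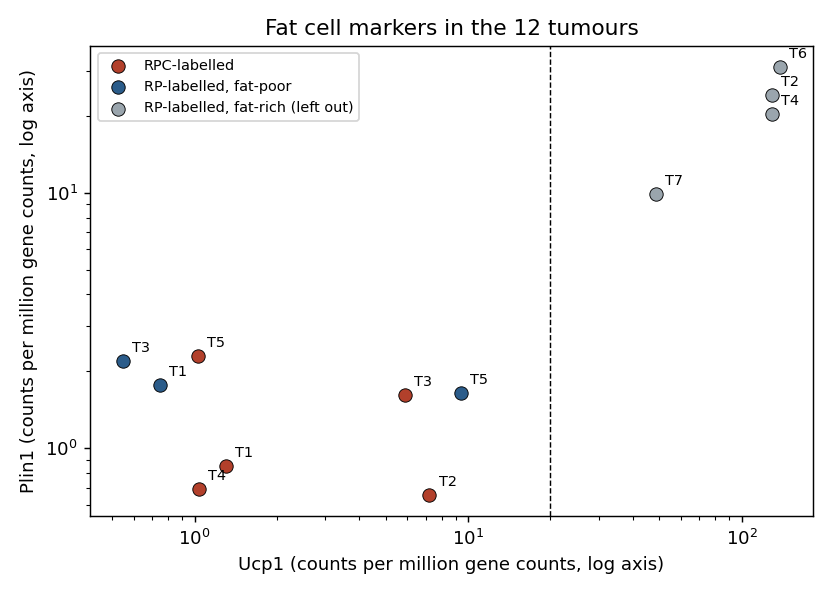
Ucp1 (horizontal) and Plin1 (vertical) in CPM, both on log axes, 1 point per tumour, with the limit of 20 CPM as a dashed line. The 5 RPC-labelled and 3 fat-poor RP-labelled tumours lie among each other, and the 4 fat-rich tumours lie apart from 48.45 CPM of Ucp1 upwards.

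The 8 libraries held 9.11 M to 57.3 M gene counts, RP-labelled T5 being the deepest, so that 3 counts corresponded to between 0.0523 and 0.329 CPM, a limit of counting error only. Calca took 8.40% to 13.9% of gene counts in the fat-poor RP-labelled, 2.36% to 11.6% in the RPC-labelled and 16.5% to 19.0% in the fat-rich tumours. The selection therefore moved with the Calca share, and also with reads aligned to more than 1 place, which made up 10.9% to 14.6% of the tables of the 8 tumours and 15.9% to 18.5% of those left out. Several of the 8 tumours stood apart. RP-labelled T3 held the least Tg of its group (1482 CPM against 5926 and 8998) and the most fibroblast and macrophage marker RNA. RP-labelled T1 alone of the 8 held Y-linked transcripts (Ddx3y at 72.55 CPM, at most 0.09 CPM elsewhere) and little Xist (5.83 CPM against 2400 to 3183). Among RPC-labelled tumours, T4 held the most Tg (5488 CPM against 26.2 to 1682) and T5 the most skeletal muscle marker RNA (4253 CPM against 15.5 to 172.4).

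The engineered genes were examined first. Crebbp stood at 98.9, 54.8 and 45.6 CPM in RP-labelled T1, T3 and T5, and at 60.8, 52.4, 50.005, 51.8 and 54.6 CPM in RPC-labelled T1 to T5. The groups overlapped (log2 fold change of RPC-labelled over RP-labelled -0.31 ± 0.23 SE; edgeR adjusted p = 0.490), and without RP-labelled T1 the log2 fold change was 0.09. A count over the whole gene cannot reveal a lost exon and so does not check the labels. Trp53 stood at 16.1 ± 4.15 CPM (SD, n = 5) with the RPC label and 27.4 ± 5.08 CPM (SD, n = 3) in the fat-poor tumours, with no overlap but no call (adjusted p = 0.152; 0.00918 in all 12 tumours). Neither Rb1 (log2 fold change 0.32 ± 0.25 SE; adjusted p = 0.520) nor the Crebbp paralogue Ep300 (0.01 ± 0.21 SE; adjusted p = 0.982) was called.

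Of 15070 genes tested in the 8 tumours, 40 were called at an adjusted p under 0.05, which is 0.265%. In RPC-labelled tumours 23 of them (0.153%) were higher and 17 (0.113%) were lower. Cwc22 and Nsg2 had the largest rises and Th the largest fall. All 7 RP-labelled against the same 5 RPC-labelled tumours gave 2736 calls among 14989 genes, or 18.3%, with 1445 higher (9.64%) and 1291 lower (8.61%). The fits share 8 tumours and are no independent evidence for each other. Of the 2736, 39 were called in the same direction in the 8 tumours (22 higher and 17 lower), which is 1.43% of the larger list and 97.5% of the 40. The call gained was Pla2g4b.

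Fold changes of the larger list were smaller in the 8 tumours and their errors larger. Of the 2736 genes, 1685 (62.1%) had an unadjusted p under 0.05 in the 8 tumours, and 21 were not tested there. Their median absolute log2 fold change was 0.81 in the 12 and 0.66 in the 8 tumours, while the median SE was 0.20 and 0.25. In all, 2694 genes (17.9%) had an unadjusted p under 0.05 in the 8 tumours, 1202 of them higher (7.98% of genes tested) and 1492 lower (9.9%). Over all 40 called genes the groups did not overlap, which held for 1625 (10.8%) of the genes tested. The fold was at least 2 for 38 of the 40.

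The number of calls rested on single tumours. It was 28 without RP-labelled T1, 0 without T3 (smallest adjusted p 0.0550; 1957 genes at an unadjusted p under 0.05) and 15 without T5. It was 1, 9, 17, 19 and 10 without RPC-labelled T1, T2, T3, T4 and T5. Cwc22 was called in 7 of these 8 fits, Col9a2, Th, Basp1, Naip2, C130060K24Rik and Smoc1 in 6 and Upp1 in 5, whereas 18 of the 40 genes were called in none. Leaving out a tumour changed the sign of none of the 40. DESeq2 called 913 genes (6.06% of genes tested) and limma voom with sample weights 12, and with a score of thyroid follicular markers as a covariate edgeR called 0 (smallest adjusted p 0.100; 1466 genes at an unadjusted p under 0.05). That list, with Tg leading it, summed to 2100 to 9722 CPM in fat-poor RP-labelled and 402 to 6023 CPM in RPC-labelled tumours. Its median log2 fold change was -1.12, so a fit with this score cannot tell follicular RNA from the label.

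**Figure D2:**
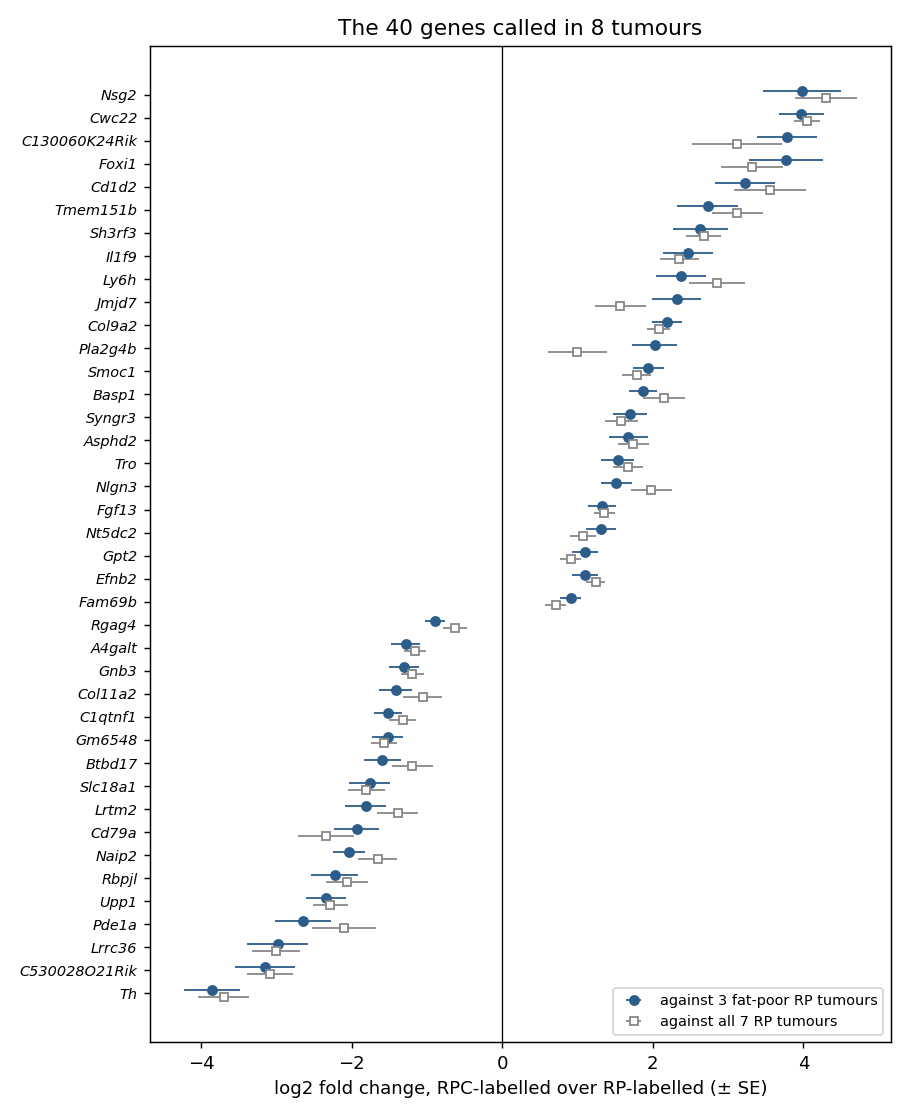
Log2 fold change of RPC-labelled over RP-labelled tumours, with its standard error, for the 40 called genes against 3 fat-poor (filled) and all 7 (open) RP-labelled tumours. The sign is the same in both fits for each gene, and Pla2g4b and Jmjd7 have the smaller values against all 7.

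Th and Cwc22 had the lowest and the second highest log2 fold change, and their promoters are shown for the match to the CREB response element, through which CREB and Crebbp are known to act. The bases are the 250 upstream of the start site, from RefSeq on build GRCm38.p6 (the counts were made on mm9), 5′ to 3′ on the minus strand, at chr7:142899996-142900245 for Th and chr2:77946357-77946606 for Cwc22. Capitals mark the full element TGACGTCA or, where that is absent, its body TGACG or CGTCA.
Th: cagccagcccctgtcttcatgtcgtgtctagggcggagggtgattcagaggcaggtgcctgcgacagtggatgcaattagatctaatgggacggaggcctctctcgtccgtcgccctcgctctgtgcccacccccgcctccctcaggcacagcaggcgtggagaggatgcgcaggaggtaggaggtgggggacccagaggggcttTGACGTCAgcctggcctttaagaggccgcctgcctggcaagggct
Cwc22: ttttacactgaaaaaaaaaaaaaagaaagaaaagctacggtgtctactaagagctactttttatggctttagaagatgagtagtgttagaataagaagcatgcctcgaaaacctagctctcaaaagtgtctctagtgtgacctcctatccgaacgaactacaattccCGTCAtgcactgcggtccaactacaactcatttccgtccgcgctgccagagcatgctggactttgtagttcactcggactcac
The Th element begins 45 bases before the start. RefSeq held promoters for 28 of the 40 called genes, 4 under another symbol, 42 promoters in all. Searched on both strands from 250 bases before to 50 after the start, the full element was in 1 of these 42, that of Th, and in 588 of all 32851 promoters (1.79%). The body TGACG, which lies within the full element, was in 4 of 22 promoters of higher and 4 of 20 of lower called genes, against 20.8% of all promoters. The RefSeq promoters of Nsg2, which had the highest log2 fold change, held neither the full element nor its body and are not shown. A match describes the letters and shows no binding.

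The 17 lower genes included Th and Slc18a1, which act in the making and storage of catecholamines. Th, whose product makes DOPA in the rate-limiting step of catecholamine synthesis, stood at 25.7, 23.4 and 16.2 CPM in RP-labelled T1, T3 and T5, and at 1.51, 0.55, 2.36, 1.33 and 1.67 CPM in RPC-labelled T1 to T5. Every RPC-labelled tumour was far below every fat-poor RP-labelled one (log2 fold change -3.85 ± 0.37 SE, a 14.5-fold lower level; adjusted p = 0.0120). The fat-rich tumours left out held 12.2 to 25.1 CPM of Th. Slc18a1, a vesicular monoamine transporter, stood at 17.0, 27.5 and 17.8 CPM against 7.37, 7.33, 7.36, 4.17 and 4.49 CPM (log2 fold change -1.76 ± 0.27 SE; adjusted p = 0.0480), but was called in no fit that left out a tumour. Ddc, which acts after Th, was not called and lay on the other side: 221, 105 and 473 CPM against 733, 620, 438, 858 and 548 CPM, with overlapping groups (log2 fold change 1.26 ± 0.44 SE; adjusted p = 0.210). Dbh was at 0 in 7 of the 8 tumours and at 0.09 CPM in RPC-labelled T2.

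Among the 23 higher genes were Nsg2, Basp1, Ly6h, Nlgn3, Syngr3 and Fgf13, put together here after their values were seen. The group was drawn from the higher genes alone, so it does not show which way neuronal genes went among all calls. Among the lower genes, C530028O21Rik (Pianp in RefSeq) fell from 116.5 ± 16.1 to 13.2 ± 8.28 CPM (SD over 3 and 5 tumours). Its log2 fold change was -3.16, beside -1.81 for Lrtm2 and -1.59 for Btbd17, which were also called lower. Nsg2, a neuronal endosomal protein, stood at 0.84, 1.67 and 1.04 CPM in the fat-poor RP-labelled tumours and at 22.2, 17.96, 6.98, 14.9 and 29.6 CPM in the RPC-labelled ones (log2 fold change 3.98 ± 0.52 SE; adjusted p = 0.0344). Its lowest RPC-labelled value, in T3, was still above all RP-labelled ones. Basp1, a membrane protein of growth cones, rose from 28.5, 43.8 and 37.5 CPM to 135, 155, 118, 111 and 153 CPM (1.87 ± 0.19 SE; adjusted p = 0.0120). Ly6h, a membrane-anchored brain protein, rose from 14.0, 25.5 and 14.9 CPM to 110, 104, 68.9, 60.5 and 128 CPM (2.38 ± 0.33 SE). Smaller rises, as mean ± SD over 3 and 5 tumours, were those of Nlgn3, a synaptic adhesion protein, from 7.51 ± 1.56 to 21.7 ± 3.47 CPM, and of Syngr3, a synaptic vesicle protein, from 3.08 ± 0.25 to 10.1 ± 1.60 CPM. Fgf13, an intracellular protein that binds sodium channels, rose from 11.4 ± 2.15 to 29.0 ± 4.47 CPM. Basp1 was called in 6 of the 8 fits without 1 tumour, Fgf13 in 2, Nsg2 and Ly6h in 1 and Nlgn3 and Syngr3 in none.

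Cwc22, a splicing factor that brings the exon junction complex to spliced RNA, had the smallest p. Its level was 32.3, 33.8 and 35.5 CPM in RP-labelled T1, T3 and T5 and 648, 641, 566, 293 and 531 CPM in RPC-labelled T1 to T5 (log2 fold change 3.97 ± 0.30 SE, 15.7-fold; adjusted p = 0.00467). RPC-labelled T4 held the lowest level of its group. The fat-rich tumours held 30.5 to 32.6 CPM. In mice Cwc22 lies in a segment whose copy number varies between strains, so reads of near-identical copies may be counted there, and no label names the strain of these tumours. Pde1a, a calmodulin-dependent phosphodiesterase that lies 7 protein-coding genes from Cwc22 in the RefSeq order, fell from 10.7, 18.2 and 29.5 CPM to 1.95, 2.20, 3.63, 3.996 and 3.91 CPM (-2.64 ± 0.37 SE; adjusted p = 0.0344).

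Matrix and secreted proteins went both ways. Col9a2, a chain of cartilage type IX collagen, rose from 4.92, 4.68 and 6.71 CPM to 27.4, 24.7, 21.4, 30.2 and 22.4 CPM (log2 fold change 2.19 ± 0.20 SE; adjusted p = 0.0118). Smoc1, a secreted antagonist of bone morphogenetic proteins, rose from 9.14, 10.6 and 11.8 CPM to 32.3, 46.3, 40.3, 52.4 and 32.9 CPM (1.94 ± 0.20 SE; adjusted p = 0.0120). Within each of these genes the RPC-labelled tumours lay close together and far above the others. Col11a2, a chain of type XI collagen, fell from a mean of 9.07 ± 0.74 to 3.41 ± 0.46 CPM (SD over 3 and 5 tumours), and the secreted C1qtnf1 fell from 27.0 ± 4.86 to 9.50 ± 1.57 CPM.

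Upp1, the uridine phosphorylase of pyrimidine salvage, fell from 41.2, 44.6 and 79.8 CPM to 12.2, 9.99, 13.0, 12.7 and 6.81 CPM (log2 fold change -2.34 ± 0.27 SE; adjusted p = 0.0210). Gpt2, the mitochondrial alanine aminotransferase, rose from a mean of 28.2 ± 1.57 to 61.0 ± 11.4 CPM (SD over 3 and 5 tumours), and A4galt, which makes the glycolipid Gb3, fell from 17.6 ± 2.21 to 7.26 ± 1.18 CPM. Rbpjl, a paralogue of the Notch effector Rbpj known from pancreatic acinar cells, fell from 10.97, 10.6 and 14.2 CPM to 3.09, 1.74, 3.49, 2.93 and 1.52 CPM (-2.23 ± 0.31 SE). Lrrc36 fell from 4.22 ± 1.85 to 0.529 ± 0.151 CPM (-2.98 ± 0.41 SE). Of these 5 genes, Upp1 was called in 5 fits without 1 tumour, Gpt2 in 1 and the others in none.

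**Figure D3:**
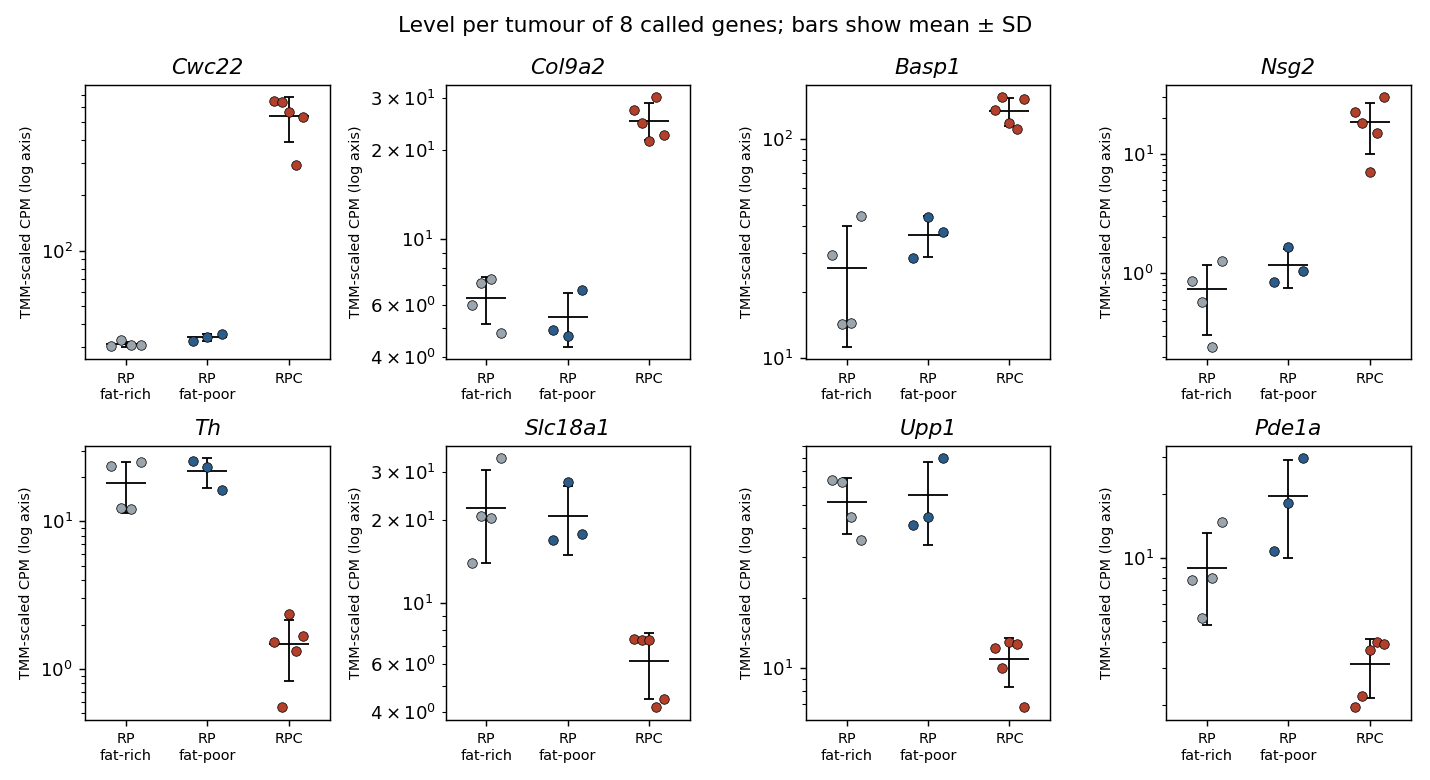
Level per tumour, in TMM-scaled CPM on log axes, of 8 called genes chosen after their values were seen, in fat-rich RP-labelled (n = 4), fat-poor RP-labelled (n = 3) and RPC-labelled (n = 5) tumours, with bars at the mean ± SD. In each panel the RPC-labelled points lie apart from both RP-labelled sets, as for Th (0.55 to 2.36 CPM against 12.2 to 25.7 CPM).

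The other called genes are given by their log2 fold change. Higher were Il1f9, the interleukin 36 gamma gene (2.47), Efnb2, an ephrin ligand of Eph receptors (1.10), Tro (1.53), Asphd2 (1.68), Nt5dc2 (1.32) and Fam69b (0.91). Lower were Gnb3, a G protein subunit (-1.30), Btbd17 (-1.59), Lrtm2 (-1.81) and Rgag4 (-0.89). The predicted or cDNA-named genes among the 40 were C130060K24Rik (Qrfprl in RefSeq, 3.79), C530028O21Rik (Pianp in RefSeq, -3.16) and Gm6548 (-1.52). Each had groups apart and an adjusted p between 0.0120 and 0.0494.

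Several calls rest on very low levels or on genes with close copies. Foxi1, a transcription factor of ionocytes, stood at 0.28, 0.31 and 0.20 CPM in the fat-poor RP-labelled tumours, near the level of 3 counts, and at 2.77, 2.47, 2.26, 4.71 and 5.36 CPM in the RPC-labelled ones. C130060K24Rik was similarly low, at 0.21, 0.21 and 0.40 CPM in RP-labelled T1, T3 and T5. It stood at 4.22, 5.77, 3.44, 3.82 and 3.84 CPM in RPC-labelled T1 to T5. Tmem151b rose from a mean of 0.767 ± 0.270 to 5.02 ± 1.43 CPM (SD over 3 and 5 tumours) and Sh3rf3, an SH3 and RING domain protein, from 1.09 ± 0.22 to 6.83 ± 2.24 CPM. Cd1d2, which presents lipids, stood at 0.473 ± 0.162 against 4.23 ± 0.971 CPM, and its near-identical copy Cd1d1 makes the count uncertain. Naip2, a sensor of bacterial proteins from a family of close copies, fell from 17.6, 21.7 and 12.6 CPM to 4.03, 3.94, 4.43, 4.08 and 4.63 CPM (log2 fold change -2.04 ± 0.21 SE; adjusted p = 0.0120).

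Pla2g4b, a cytosolic phospholipase A2, was called with the fat-rich tumours left out and not with them. It stood at 2.81, 3.33 and 2.76 CPM in the fat-poor RP-labelled, 14.0, 9.35, 14.6, 7.55 and 15.1 CPM in the RPC-labelled and 4.01, 7.29, 10.3 and 12.05 CPM in the fat-rich tumours T2, T4, T6 and T7. T6 and T7 thus lay within the RPC-labelled range, and the fat-poor tumours lay below it (log2 fold change 2.03 ± 0.30 SE and adjusted p = 0.0460 in the 8, 0.999 ± 0.396 SE and adjusted p = 0.0930 in the 12 tumours). Jmjd7, a lysyl hydroxylase gene with no protein-coding gene between it and Pla2g4b, stood at 1.31 ± 0.15 against 6.56 ± 1.79 CPM (adjusted p = 0.0386 in the 8). In RefSeq the models of Jmjd7 and Pla2g4b lie apart, but the annotation used for the counts was not given. Read-through transcripts and reads of overlapping exons cannot be told apart from the counts of either gene.

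Genes called in the 12 and not in the 8 tumours kept similar fold changes in the examples the rule named. Gjd2, a neuronal gap junction protein, stood at 0.910 ± 0.574 against 7.46 ± 2.83 CPM (SD over 3 and 5 tumours). Its log2 fold change was 2.92 in both fits, with an adjusted p of 0.0709 in the 8 tumours. Syt11, Pnma2, Rtn1 and Stmn2, all expressed in neurons, had log2 fold changes of 0.94 to 1.72 and adjusted p-values of 0.0522 to 0.0889. Among lower genes, Cd55, which protects cells from complement, stood at 54.8 ± 13.0 against 22.7 ± 5.34 CPM (-1.28 ± 0.22 SE; adjusted p = 0.0584). Best1, Efna1, the tight junction gene Tjp3 and the calcium sensor gene Kcnip3 had log2 fold changes of -1.15 to -0.76. In each of these 10 genes the 3 fat-poor and 5 RPC-labelled tumours did not overlap, as in 10.8% of all genes tested. The 10 were picked by their p in the fit of 12 tumours, which holds the same 8, so these values only describe them. Over the whole larger list the median absolute log2 fold change was 0.81 in the 12 and 0.66 in the 8 tumours.

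The adipocyte list holds Ucp1 and Plin1, so its values follow from the selection and are given with no test. The median log2 fold change of 15 members was -0.35 against the fat-poor and -3.10 against all 7 RP-labelled tumours, beside -0.008 and -0.016 over all genes tested. Ppara, a regulator of fatty acid oxidation, stood at 0.953 ± 0.455 CPM in the fat-poor and 1.83 ± 0.884 CPM in the RPC-labelled tumours (SD over 3 and 5 tumours). Over all genes tested, edgeR called 0.265% in the 8 tumours and 8.61% lower in the 12. DESeq2 called 6.06% in the 8, and 17.9% had an unadjusted p under 0.05 there. Genes of lipid synthesis and fatty acid oxidation also followed the fat content. They summed to 1816 to 2036 CPM in the fat-poor RP-labelled, 1644 to 2137 CPM in the RPC-labelled and 2645 to 6077 CPM in the fat-rich tumours. The change in their calls from the 12 to the 8 tumours therefore goes with the selection and is only a description. Among 23 of these genes tested, edgeR called 0 in the 8 tumours, DESeq2 and limma voom 0, and 1 had an unadjusted p under 0.05, while 7 were called lower in the 12. The 1 gene was Lipe, hormone-sensitive lipase, at 26.2, 31.7 and 20.8 CPM against 18.6 to 22.9 CPM (-0.37 ± 0.16 SE; adjusted p = 0.278), and at 46.9 to 92.1 CPM in the fat-rich tumours. Scd1, a fatty acid desaturase, stood at 117, 53.8 and 212 CPM in the fat-poor RP-labelled, 38.8 to 146 CPM in the RPC-labelled and 258 to 1893 CPM in the fat-rich tumours. Its adjusted p was 0.0284 in the 12 and 0.394 in the 8 tumours. Genes of the respiratory chain and citric acid cycle had a median of -0.18 in the 12 and 0.13 in the 8 tumours. Cyc1, which encodes cytochrome c1, stood at 71.8, 76.6 and 73.7 CPM against 98.4, 104.9, 96.0, 98.0 and 109 CPM, apart but not called (log2 fold change 0.44 ± 0.10 SE; adjusted p = 0.108), and at 99.9 to 124 CPM in the fat-rich tumours.

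Cell cycle genes kept their median but lost their calls, as most genes called in the 12 did. All 35 cell cycle genes and E2F targets had a log2 fold change above 0 in the 8 tumours, with a median of 0.77 (0.85 in the 12). None was called by edgeR or limma voom, 5 were called by DESeq2 and 16 had an unadjusted p under 0.05, whereas 29 were called higher in the 12. Over all genes tested in the 8, edgeR called 0.265% and DESeq2 6.06%, and 17.9% had such a p. In the 12, 9.64% were called higher. At 0.265%, the lack of an edgeR call in 35 genes does not set this list apart. Mcm6, a subunit of the replicative helicase, stood at 116, 94.6 and 127 CPM against 194, 267, 195, 139 and 218 CPM (0.84 ± 0.21 SE; adjusted p = 0.133). RPC-labelled T4 was nearest to the RP-labelled tumours in Mcm6, and Mki67, the proliferation marker, overlapped between the groups (209, 138 and 394 against 487, 860, 429, 236 and 510 CPM). The summed list ran from 1498 to 3203 CPM in fat-poor RP-labelled and from 2254 to 5624 CPM in RPC-labelled tumours. Beside it, the follicular list was lower in median (-1.12, with 14 of 14 tested members below 0). With that score as a covariate the cell cycle median was 0.23. The score moved with the label, so this fit cannot tell follicular RNA from the label, and the part of follicular RNA was not tested.

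Of 24 genes of hypoxia and glycolysis, 23 were above 0, with a median of 0.63 (0.51 in the 12). With the follicular score the median was 0.38. EdgeR and limma voom called 0, DESeq2 10, and 14 had an unadjusted p under 0.05, against 11 called higher in the 12. Over all genes tested, edgeR called 0.265% and DESeq2 6.06%, and 17.9% had such a p (7.98% higher and 9.9% lower). In the 12, 9.64% were called higher. Pgk1, a glycolytic kinase, stood at 188, 233 and 218 CPM against 394, 510, 517, 247 and 520 CPM, and Pdk1, which slows entry of pyruvate into the citric acid cycle, at 64.5, 72.5 and 51.9 CPM against 95.2, 99.8, 107, 81.9 and 124 CPM. Both were apart between groups and not called (adjusted p = 0.133 and 0.130). Of 34 neuronal and synaptic adhesion genes, 1 was called higher in the 8 (Nlgn3) and 13 in the 12 tumours, with medians of 0.56 and 0.72. Of 30 synaptic vesicle and exocytosis genes, Nsg2 was called, 7 were higher and 6 lower at an unadjusted p under 0.05, and the median was 0.09.

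**Figure D4:**
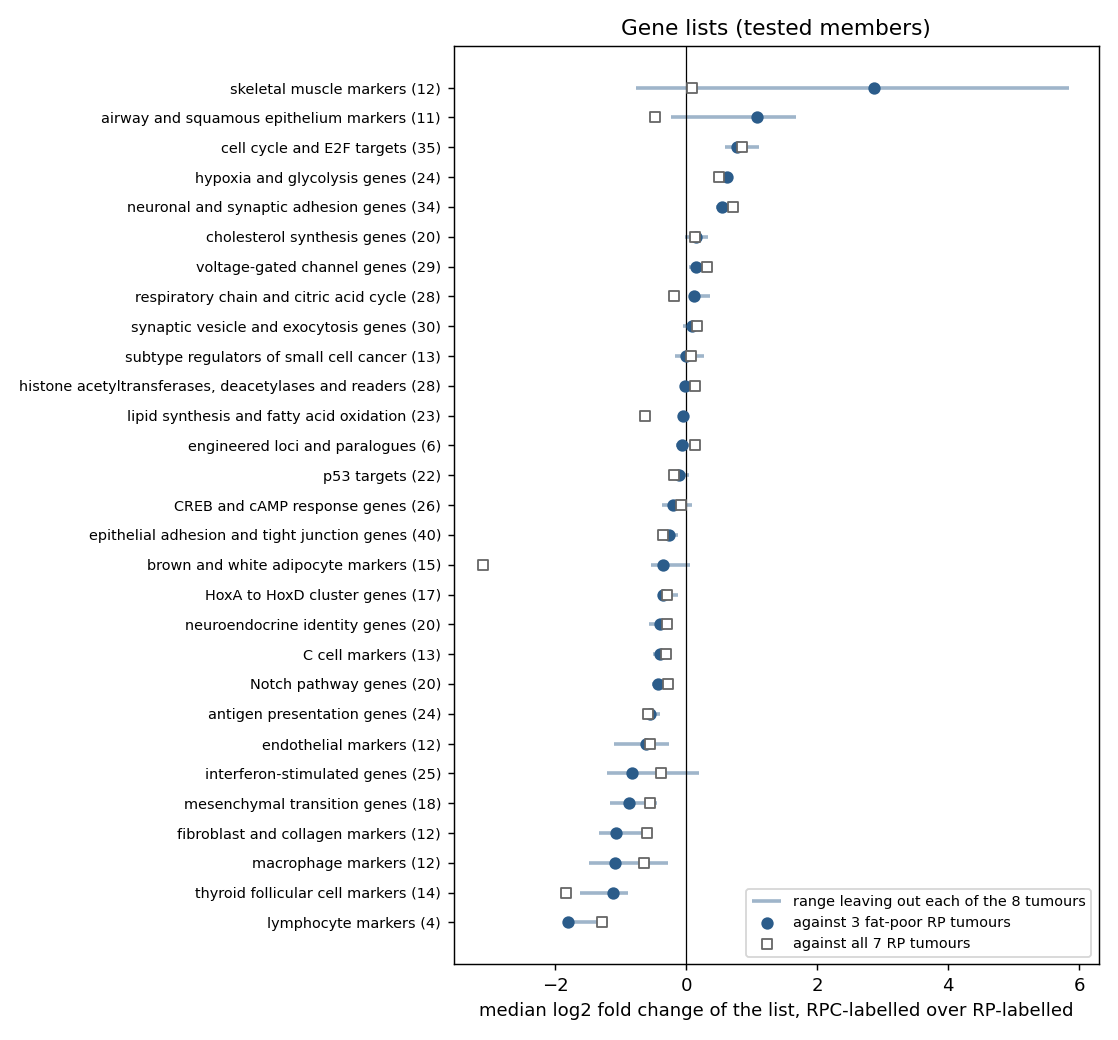
Median log2 fold change over the tested members of each gene list (number in brackets), RPC-labelled over RP-labelled, against the fat-poor (filled circles) and all 7 (open squares) RP-labelled tumours, with lines for the range when each of the 8 tumours is left out. The adipocyte medians of -3.10 and -0.35 restate the selection on Ucp1, and the long lines of skeletal muscle and airway lists cross 0.

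Most tested neuroendocrine and C cell genes were lower: 4 of 20 and 4 of 13 were above 0, Gfra1 among the latter. Of 20 tested neuroendocrine identity genes, Th was called, and 2 were higher and 4 lower at an unadjusted p under 0.05, with a median of -0.39 (-0.05 with the follicular score). Over all genes tested, edgeR called 0.265%, and 7.98% were higher and 9.9% lower at that p. The C cell list had a median of -0.40 (0.02 with that score). Scg2, a granin of secretory granules, stood at 12831, 9513 and 7763 CPM against 4594, 1963, 5686, 7692 and 1695 CPM (-1.23 ± 0.51 SE; adjusted p = 0.257), apart by a narrow margin. Gfra1, a GDNF co-receptor, had the smallest p of the C cell list, at 5.91, 2.29 and 3.40 CPM against 19.6, 12.7, 7.69, 18.9 and 20.4 CPM (2.02 ± 0.42 SE; adjusted p = 0.0950), and was called in the 12 tumours (adjusted p = 0.00181). Nfib, a chromatin-opening factor of small cell cancers, stood at 369 ± 97.0 CPM (SD, n = 3) against 769 ± 191 CPM (SD, n = 5), apart but not called (adjusted p = 0.128).

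Epithelial adhesion genes were lower in median (-0.27 in the 8 and -0.35 in the 12). Of 40, edgeR and limma voom called 0 and DESeq2 5, and 10 were lower and 3 higher at an unadjusted p under 0.05, against 11 called lower and 2 higher in the 12. Over all genes tested, edgeR called 0.265% and DESeq2 6.06%, and 9.9% were lower and 7.98% higher at that p. In the 12, 8.61% were called lower and 9.64% higher. Cdh1, the epithelial cadherin, stood at 284, 161 and 202 CPM against 59.4, 57.2, 124, 121 and 50.8 CPM (-1.40 ± 0.34 SE; adjusted p = 0.128). Mesenchymal genes were also lower in median (-0.87, and -0.45 without RP-labelled T3, with 0 of 18 called by edgeR or limma voom, 5 by DESeq2, 9 at an unadjusted p under 0.05). Acta2, smooth muscle actin, stood at 41.4, 73.9 and 30.7 CPM against 15.8, 18.1, 12.1, 10.5 and 21.0 CPM (adjusted p = 0.0811). Fibroblast and macrophage markers moved beside them: the fibroblast list summed to 1574 to 4016 against 659 to 2183 CPM and the macrophage list to 391 to 1557 against 261 to 676 CPM, with RP-labelled T3 highest in both. Thy1, a surface protein of fibroblasts, stood at 173 ± 64.4 against 71.3 ± 21.3 CPM (SD over 3 and 5 tumours, edgeR adjusted p = 0.113). Unlike the list sum, Thy1 was lowest of its group in RP-labelled T3 (105 CPM against 181 and 233), and it stood at 279 ± 56.5 CPM in the fat-rich tumours. Csf1r, the receptor of macrophage growth factor, stood at 34.5 ± 15.2 against 14.7 ± 4.50 CPM (edgeR adjusted p = 0.147). With a stromal and immune score as a covariate, 2 genes were called in all.

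Notch and cyclic AMP genes had no call by edgeR, which called 0.265% of all genes tested, too few to set lists of this size apart. At an unadjusted p under 0.05, 7.98% of all genes tested were higher and 9.9% lower, and DESeq2 called 6.06%. Of 20 Notch pathway genes, 9 were lower and 1 higher at an unadjusted p under 0.05, DESeq2 called 3 lower and 1 higher and limma voom 0. Dll1, a Notch ligand, stood at 17.6, 10.4 and 21.7 CPM against 6.81, 4.49, 7.17, 8.44 and 6.44 CPM (-1.32 ± 0.27 SE; adjusted p = 0.0950). Of 26 CREB and cyclic AMP response genes, 4 were higher and 4 lower at an unadjusted p under 0.05, DESeq2 called 4 higher and 1 lower and limma voom 0, with a median of -0.19 that was 0.10 without RP-labelled T3 and 0.06 with the follicular score. The phosphodiesterases of cyclic AMP in this list differed in sign: Pde4a stood at 49.7, 33.7 and 30.8 CPM against 14.6, 18.4, 23.2, 20.1 and 13.3 CPM, and Pde4b at 30.3, 27.2 and 35.1 CPM against 82.7, 121, 49.6, 68.5 and 65.2 CPM (adjusted p = 0.0931 and 0.0950). Both were apart between the groups. Areg, an EGF receptor ligand, stood at 4.22, 10.8 and 5.12 CPM against 63.1, 21.99, 30.5, 33.4 and 16.3 CPM (2.31 ± 0.51 SE; adjusted p = 0.105).

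The lists of this paragraph and the next had no call by edgeR or limma voom in the 8 tumours, methods that called only 40 and 12 of 15070 genes tested. Of 24 antigen presentation genes, 12 were lower at an unadjusted p under 0.05, DESeq2 called 6 lower, and the median was -0.55. The shares over all genes tested were 9.9% lower at that p and 6.06% called by DESeq2 in either direction. Cd74, the invariant chain of MHC class II, had the smallest p among them, at 396 ± 231 against 122 ± 34.3 CPM (SD over 3 and 5 tumours; adjusted p = 0.133), with overlapping groups. Of 28 histone acetyltransferases, deacetylases and readers, 3 were lower at an unadjusted p under 0.05, DESeq2 called 2 lower and the median was -0.02, beside 9.9% of all genes tested that were lower at that p and 6.06% that DESeq2 called. The deacetylase gene Hdac7 stood at 126, 152 and 94.8 CPM against 65.4, 69.8, 71.2, 45.3 and 74.6 CPM, apart but not called (adjusted p = 0.0973). Of 22 p53 targets, 2 were lower at an unadjusted p under 0.05 and DESeq2 called 1 of 22 lower, shares near those of all genes tested (9.9% and 6.06%). The antiproliferative gene Btg2 stood at 265 ± 116 against 119 ± 26.9 CPM (adjusted p = 0.128).

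Of 29 voltage-gated channel genes, 6 were higher and 5 lower at an unadjusted p under 0.05, and DESeq2 called 3 higher. Over all genes tested, 17.9% had such a p (7.98% higher and 9.9% lower), and DESeq2 called 6.06%. Scn9a, a sodium channel of sensory and neuroendocrine cells, stood at 14.5 ± 3.87 against 35.65 ± 6.65 CPM, apart between groups but not called (1.29 ± 0.23 SE; adjusted p = 0.0709). Of 17 tested Hox cluster genes, 5 were higher and 2 lower at an unadjusted p under 0.05, and DESeq2 called 4 higher. The median was -0.36, with 7 of 17 above 0, and the list sums overlapped (497 to 748 against 418 to 825 CPM). Hoxd3, a patterning gene of the HoxD cluster, had the smallest p, at 0.07, 0 and 0.23 CPM against 2.46, 54.9, 8.11, 0.27 and 18.3 CPM (adjusted p = 0.145), with RPC-labelled T4 close to the RP-labelled level. Hoxd8 of the same cluster stood at 0.14, 1.35 and 0.69 CPM against 4.16, 126, 16.2, 0.71 and 29.0 CPM, so that RPC-labelled T4 lay within the RP-labelled range and T2 far above the rest. Of 20 cholesterol synthesis genes, 1 had an unadjusted p under 0.05 (median 0.15), which was Lss, the lanosterol synthase gene, at 23.7 ± 2.40 against 28.9 ± 1.88 CPM. Of 13 subtype regulators of small cell cancer 3 had such a p (median 0.003; DESeq2 called 2 higher), and of 12 endothelial markers 3, all lower (median -0.62, and -0.26 without RP-labelled T3). Flt1, a receptor of vascular endothelial growth factor, had the smallest p of these markers, at 15.8 ± 7.95 against 7.11 ± 1.77 CPM (adjusted p = 0.193).

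Markers of other cells differed between the groups beside these results. Their part in them was not tested, and the fits with a marker score cannot tell it from the label. Of the lymphocyte list 4 of 12 members were tested, and Cd79a, the B cell receptor subunit, fell from 22.4, 9.47 and 11.4 CPM to 4.22, 2.93, 3.73, 3.91 and 4.20 CPM (-1.93 ± 0.30 SE; adjusted p = 0.0474), while Ms4a1, another B cell marker, stayed at or under 0.20 CPM in all 8 tumours. Pth, the parathyroid hormone gene, stood at 2501, 1352 and 808 CPM in RP-labelled T1, T3 and T5 against 0.38, 117, 1066, 829 and 0.65 CPM in RPC-labelled T1 to T5. Casr, the calcium-sensing receptor gene, stood at 196 ± 81.8 against 124 ± 30.8 CPM (adjusted p = 0.251). The muscle median of 2.87 became -0.77 and the airway median of 1.08 became -0.24 without RPC-labelled T5. Of 25 interferon-stimulated genes edgeR, DESeq2 and limma voom called 0, and 7 were lower at an unadjusted p under 0.05, beside 9.9% of all genes tested. Their median of -0.82 became 0.20 without RP-labelled T3, and Gbp2, an interferon-induced GTPase gene, stood at 13.4 ± 6.47 against 5.94 ± 1.68 CPM (adjusted p = 0.182). The fat-poor RP-labelled tumours were also less alike: their common biological coefficient of variation was 0.372, against 0.252 for the fat-rich and 0.318 for the RPC-labelled tumours.

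**Figure D5:**
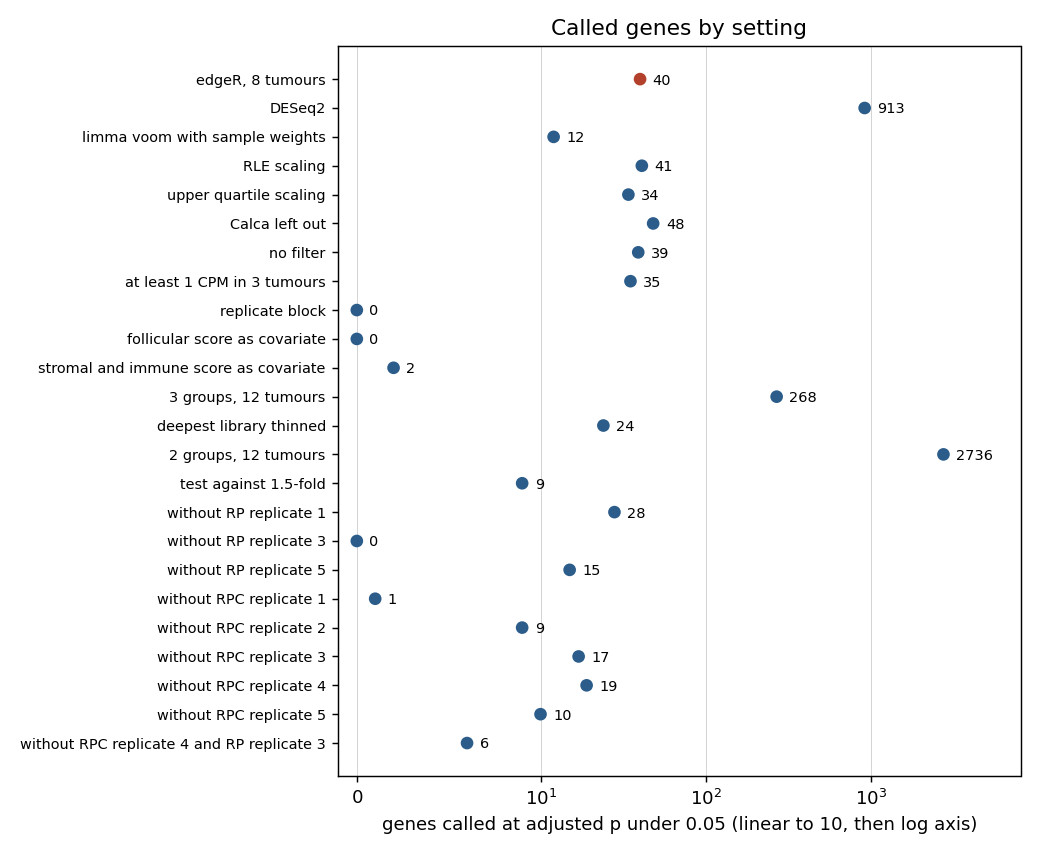
Number of genes called at an adjusted p under 0.05 under each setting, on an axis that is linear to 10 and logarithmic above. The count of 40 stays between 34 and 48 under other scalings and filters and ranges from 0 to 28 when 1 tumour is left out.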

How the data were processed

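Polyadenylated RNA of 12 tumours was sequenced, and 8 tumours enter this comparison. The authors deposited raw counts per gene, 23284 genes and 5 summary rows per tumour; the summary rows were left out (reads in no gene were 14.4% to 17.6% and reads aligned to more than 1 place 10.9% to 14.6% of the tables of the 8). The submitters' processing notes name bcl2fastq 1.8.2, TopHat2 2.0.12, HTSeq 0.6.1 and mm9. The annotation and strand setting were not given in the sources used here; reads of genes that overlap, on either strand, may be mixed.

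The selection used plain CPM; other printed levels are CPM scaled by TMM over all 12 tumours. The comparison used edgeR 4.0.16 (limma 3.58.1, R 4.3.3): filterByExpr with a minimum count of 10, TMM, the robust quasi-likelihood F test and Benjamini-Hochberg adjustment over all genes tested, called under 0.05. The SE is the absolute log2 fold change divided by the square root of F. Depth was 9.11 M to 57.3 M gene counts. Alternatives were DESeq2 1.42.0, limma voom, other scalings and filters, covariates, a replicate block, thinning, other sets of tumours and leaving out each of the 8.

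The tumours, the 31 gene lists (643 of 644 members found, 5 under another symbol) and the tests were chosen with earlier results of these data known. By rule, the text names the engineered genes, the called genes with the largest fold (6 per direction) and the smallest p (5 per direction), up to 3 called members (else the 1 with the smallest p) of each list, and the 5 per direction with the smallest p called in only 1 of the fits. The ranked parts leave out low genes (mean under 1 CPM) and predicted models. Other names, predicted models and low genes among them, were chosen after their values were seen. Promoters are from RefSeq. Some members of the lists are not reported here.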

Additional observations from a re-analysis of the deposited data

Results flagged for a closer look

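Of 83 gene levels searched in the 5 RPC-labelled tumours, 3 had 1 tumour far from the other 4; chance flags about 1 in 20 such groups. C530028O21Rik, called lower, stood at 27.68 CPM in RPC-labelled T2 and at 7.44 to 12.08 CPM in the others. Dio1, the follicular deiodinase gene, stood at 25.57 CPM in T4 and at 14.7 to 17.05 CPM in the others. Mylpf, a skeletal muscle light chain gene, stood at 335.1 CPM in T5 and at 5.77 to 15.54 CPM in the others.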

How the results depend on the processing

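The 40 calls became 913 with DESeq2, 12 with limma voom, 2 with a stromal and immune score and 0 with a follicular score as a covariate, 268 in a fit of all 12 tumours in 3 groups, 2736 in 2 groups, 24 with the deepest library thinned and 9 against a 1.5-fold change. The number of the 2736 calls that were kept, 39, became 704, 12, 2, 0, 243, 24 and 9 under the same settings, the fit in 2 groups left aside. The replicate block gave 0 calls and 0 kept (edgeR, smallest adjusted p 0.0665, with 1955 genes at an unadjusted p under 0.05). Same-numbered tumours correlated at 0.106, -0.026 and 0.015, within the -0.185 to 0.2 of differently numbered ones. Whether they share more than a number was not tested. Without 1 tumour the calls ranged from 0 to 28 and the kept calls from 0 to 18. Without RPC-labelled T4 and RP-labelled T3 together, chosen after seeing the data, both were 6. Other scalings and filters gave 34 to 48 calls. The cause of these differences, fewer samples among them, was not tested.

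Log2 fold changes that turned were small or uncalled. Crebbp ranged from -0.525 to 0.091 and Xist from -0.061 to 1.165 when tumours were left out. Ep300 ranged from -0.235 to 0.233 and was -0.128 with limma voom, -0.215 and -0.021 with the follicular and the stromal score, and -0.002 after thinning. Sprr1a was 0.554 with the stromal score. Depth limits levels under 0.0523 to 0.329 CPM.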
